A study of Solanum lycopersicum with 12 samples.

Results

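A stretch of tomato chromosome 10, from locus Solyc10g075050 to locus Solyc10g075160, holds 17 of the 33976 loci in the table of leaf transcript levels. The stretch was chosen by its locus numbers around Solyc10g075090 and Solyc10g075103, the 2 loci known to be higher in leaves of edited *SlMYB60* lines, so it was selected on the same comparison that is described here. For these 2 loci the difference from the wild type is therefore a description and carries no test. Both are annotated as non-specific lipid transfer proteins. The other 15 loci carry no name in the sources used here, so for them the label of a lipid transfer protein cluster rests on position alone, and they are called by their locus numbers.

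Non-specific lipid transfer proteins are small secreted plant proteins, held compact by disulfide bonds between conserved cysteines around a tunnel that takes up fatty acids and other lipids. They are abundant in the epidermis of leaves and have been linked to the movement of wax and cutin building blocks towards the cuticle, the waxy layer that seals the leaf. Members of the family are also known from defence against microbes, from responses to drought, and as food allergens. *SlMYB60* encodes a transcription factor of the R2R3-MYB class, whose Arabidopsis counterpart acts in guard cells.

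Leaf RNA was measured in 12 libraries of the processing cultivar Red Setter, with 4 wild type libraries and 4 from each of the homozygous, Cas9-free T2 lines *slmyb60Cr1* and *slmyb60Cr2*, which carry CRISPR/Cas9 deletions in *SlMYB60*. Each library came from leaf discs of 4 pooled plants, and each edited line is 1 allele. The deposited labels give all 12 libraries a water deficit of 14 days without irrigation, whereas the methods of the study mention none for the RNA plants, and there was no second watering regime to compare. Values are TPM, the share of a locus in all transcripts of a library, scaled for transcript length and to the same total in every library, so levels may be compared between loci but the table does not hold the reads behind a value. The study gives read totals for each library, which were not used here. In bulk leaf, more cells that express a gene and more RNA per cell cannot be told apart. *SlMYB60* itself (Solyc10g081490) ranged over the wild type libraries from 12.3 to 21.6 TPM, over those of *slmyb60Cr1* from 1.57 to 2.78 TPM and over those of *slmyb60Cr2* from 2.19 to 3.15 TPM, so all edited libraries were below all wild type libraries. The ranges of the lines overlapped, and the gene does not tell one line from the other. It lies on the same chromosome, with 434 loci of the table between it and the interval.

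The leaf tissue was checked against loci set down as markers, whose pairing with gene names rests on general knowledge and not on an annotation at hand. The 3 loci for the small subunit of Rubisco summed to 9031 to 18707 TPM in the wild type, 3717 to 17393 TPM in *slmyb60Cr1* and 6106 to 22348 TPM in *slmyb60Cr2*. Of the 7 epidermal and cuticle loci, 6 were in the table and 6 were tested, and none passed limma's thresholds given below in either line, nor an unadjusted p of 0.05 (0 of 6). Their summed level was 341 to 475 TPM in the wild type, 331 to 505 TPM in *slmyb60Cr1* and 356 to 442 TPM in *slmyb60Cr2*. One of them, CER6 (Solyc02g085870), averaged 300 TPM in the wild type, so the sum says little about the others. Of the 7 loci of glandular trichomes, 5 were in the table and 1 of these was at 0 in all libraries. Together they reached 0.409 to 0.667 TPM in the wild type, 0.0873 to 1.23 TPM in *slmyb60Cr1* and 0.256 to 1.44 TPM in *slmyb60Cr2*. Of the 3 dehydration and abscisic acid loci, 0 were called or had an unadjusted p below 0.05. They summed to 53.3 to 59.0 TPM in the wild type, 39.1 to 63.7 TPM in *slmyb60Cr1* and 31.1 to 73.1 TPM in *slmyb60Cr2*. Of all loci tested, 0.669% were called in *slmyb60Cr1* and 1.4% in *slmyb60Cr2*. An unadjusted limma p below 0.05 was reached by 17.1% and 23.1%. Counts of 0 in lists this short are thus no result about epidermis or dehydration.

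Few loci of the interval carried nearly all of its RNA. In wild type leaves, Solyc10g075100 had a level of 3599 ± 694 TPM (SD over the 4 libraries), which made it number 18 of all 33976 loci by mean level. Solyc10g075070 was at 2756 ± 150 TPM and number 23, and Solyc10g075150 was at 2009 ± 781 TPM and number 32. Solyc10g075070 and Solyc10g075150 did not differ beyond their spread, since wild type replicate 1 was above all Solyc10g075070 libraries in Solyc10g075150 and the other 3 were below. Far lower came Solyc10g075090 with 312 ± 67.5 TPM, Solyc10g075110 with 266 ± 164 TPM, Solyc10g075160 with 82.2 ± 47.2 TPM and Solyc10g075103 with 71.0 ± 24.9 TPM. Within each of the pairs Solyc10g075090 and Solyc10g075110, and Solyc10g075160 and Solyc10g075103, the wild type values overlapped.

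The remaining 10 loci were at or near 0. Solyc10g075107 lay between 0.206 and 2.85 TPM over the 12 libraries and Solyc10g075080 between 0 and 0.737 TPM. Solyc10g075118 did not exceed 0.462 TPM, and Solyc10g075114 was above 0 in 1 library, at 0.0291 TPM. The other 6 (Solyc10g075050, Solyc10g075060, Solyc10g075065, Solyc10g075111, Solyc10g075112 and Solyc10g075116) were listed at 0 in all 12 libraries. With a minimum of 0.5 TPM in at least 4 libraries, 9 of the 17 loci entered the tests and 8 did not.

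Solyc10g075090, the more abundant of the annotated lipid transfer protein genes, was at 410, 260, 276 and 302 TPM in wild type replicates 1 to 4. In *slmyb60Cr1* it was at 1358, 1053, 1016 and 1137 TPM, and in *slmyb60Cr2* at 1387, 828, 892 and 504 TPM. All 8 edited libraries were above all wild type libraries, with replicate 4 of *slmyb60Cr2* closest to them. The mean was 3.66 times that of the wild type in *slmyb60Cr1* and 2.89 times in *slmyb60Cr2*. On the log2(TPM + 0.1) scale, on which low loci appear to change less than they do, the difference was 1.88 ± 0.26 (standard error) in *slmyb60Cr1* and 1.46 ± 0.26 in *slmyb60Cr2*. Ordered by mean level, the gene was number 408 of the table for wild type leaves, number 61 for *slmyb60Cr1* and number 81 for *slmyb60Cr2*.

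Solyc10g075103, the other annotated lipid transfer protein gene, was at 97.6, 72.9, 37.4 and 76.2 TPM in the wild type. It was at 277, 173, 191 and 237 TPM in *slmyb60Cr1* and at 341, 209, 240 and 156 TPM in *slmyb60Cr2*. Again no edited library overlapped the wild type. The mean was 3.09 times that of the wild type in *slmyb60Cr1* and 3.33 times in *slmyb60Cr2*, and the log2 differences were 1.68 ± 0.30 and 1.76 ± 0.30 (standard error).

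Solyc10g075150, which has no name in the sources used here, had the largest difference in TPM of all 17 loci in both lines. It was at 3169, 1599, 1502 and 1765 TPM in the wild type, at 4855, 3735, 3040 and 3499 TPM in *slmyb60Cr1*, and at 2895, 2890, 1756 and 3432 TPM in *slmyb60Cr2*. Wild type replicate 1 stood apart from the other wild type libraries and overlapped both lines, while the other 3 wild type libraries were below every *slmyb60Cr1* library. The log2 fold change in *slmyb60Cr1* was 0.96 (95% interval 0.37 to 1.55), just short of the threshold of 1, and limma's adjusted p of 0.0962 did not pass either. Without wild type replicate 1 it was 1.20 with a limma adjusted p of 0.0411, and the locus was then called. It was not called with any other single library left out (limma adjusted p from 0.0710 to 0.208), nor without all 3 libraries numbered 1 (log2 fold change 1.08, limma adjusted p = 0.0731). In *slmyb60Cr2* the log2 fold change was 0.48 (95% interval −0.12 to 1.07, limma adjusted p = 0.326).

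The 2 most abundant loci of the wild type showed no such difference. Solyc10g075100 was at 4619, 3093, 3258 and 3424 TPM in the wild type, 3655, 2979, 3677 and 3122 TPM in *slmyb60Cr1* and 4058, 3392, 3946 and 2797 TPM in *slmyb60Cr2*. Wild type replicate 1 was above all edited libraries and 1 library of each line was below all of the wild type, with the others overlapping. The 95% intervals of the log2 fold change ran from −0.45 to 0.28 in *slmyb60Cr1* and from −0.38 to 0.35 in *slmyb60Cr2*. Solyc10g075070 was at 2685, 2877, 2578 and 2884 TPM in the wild type, 2293, 2678, 3555 and 3009 TPM in *slmyb60Cr1* and 2823, 2619, 3414 and 2691 TPM in *slmyb60Cr2*. The edited lines spread more widely than the wild type here, with 2 *slmyb60Cr1* libraries and 1 *slmyb60Cr2* library above all wild type libraries and 1 *slmyb60Cr1* library below them. The intervals ran from −0.27 to 0.37 and from −0.26 to 0.38, so a change of the size seen in Solyc10g075090 was outside them for both loci and both lines.

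For the less abundant loci the spread within a genotype was wide. Solyc10g075110 was at 498, 264, 175 and 128 TPM in the wild type, 566, 269, 209 and 264 TPM in *slmyb60Cr1* and 377, 210, 299 and 187 TPM in *slmyb60Cr2*. Its log2 fold changes were 0.38 (95% interval −0.55 to 1.30) and 0.15 (95% interval −0.78 to 1.07). Solyc10g075160, the last locus of the interval, was at 44.9, 44.8, 96.0 and 143 TPM in the wild type, 22.7, 44.0, 123 and 52.8 TPM in *slmyb60Cr1* and 25.3, 33.2, 125 and 113 TPM in *slmyb60Cr2*. Its log2 fold changes of −0.52 and −0.30 had 95% intervals from −1.94 to 0.89 and from −1.72 to 1.11, which hold both a rise and a fall. For Solyc10g075080 and Solyc10g075107, near the minimum, the intervals spanned more than 3 log2 units in each line, and no statement on them is possible at this level.

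**Figure D1:**
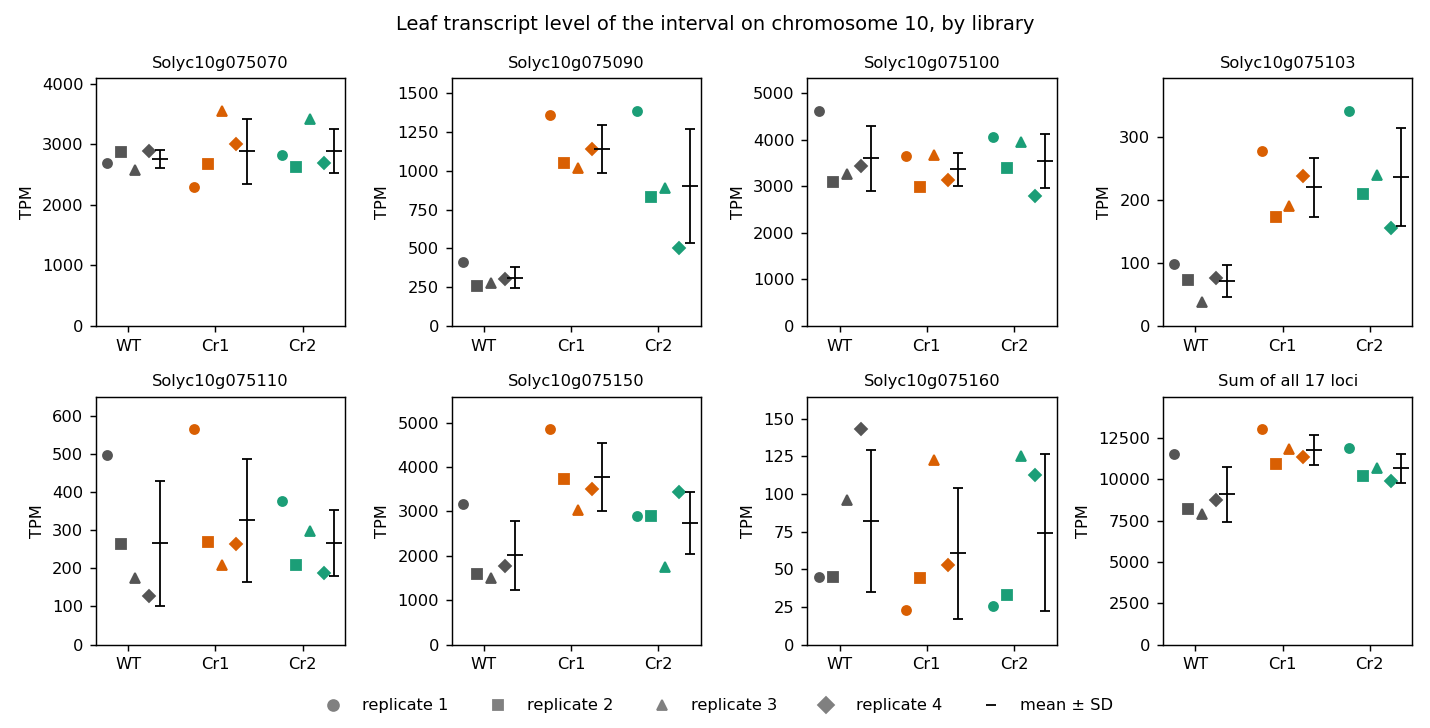
TPM of the 7 loci above 10 TPM and of the sum of all 17 loci in each library, with 1 symbol per replicate number, in wild type (WT), *slmyb60Cr1* (Cr1) and *slmyb60Cr2* (Cr2), and the mean ± SD beside each group (n = 4). In Solyc10g075090 and Solyc10g075103 all edited libraries lie above the wild type, whereas libraries of all genotypes overlap in Solyc10g075070 and Solyc10g075100 and wild type replicate 1 stands high in Solyc10g075150 at 3169 TPM.

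Each line was compared with the wild type by limma with an intensity trend, in 1 fit over the 21218 loci above the minimum. A locus was called where its Benjamini-Hochberg adjusted p was under 0.05 and its log2 fold change exceeded 1 in either direction. In *slmyb60Cr1*, 2 of the 9 tested loci were called higher, against 0.448% of all loci tested. In *slmyb60Cr2* it was also 2 of 9, against 1.13% of all, and 2 of 9 were called higher in both lines, against 0.306% of all. No tested locus of the interval was called lower in either line, nor lower at an unadjusted p below 0.05 (0 of 9), where 0.222% of all loci were called lower in *slmyb60Cr1* and 0.273% in *slmyb60Cr2*, so a count of 0 is no result about the interval. The lowest log2 fold change was −0.89 for Solyc10g075080 in *slmyb60Cr1*, with values of 0 to 0.376 TPM there. The called loci were Solyc10g075090 and Solyc10g075103, around which the interval was drawn, so these counts follow from the choice and show nothing about the interval. Solyc10g075103 was not called in *slmyb60Cr1* when wild type replicate 2, wild type replicate 4 or *slmyb60Cr1* replicate 4 was left out, which left 1 locus called there, with log2 differences of 1.72, 1.74 and 1.64 for Solyc10g075103. The counts of loci without overlap also follow from the choice. They are the 2 of 9 loci whose 4 *slmyb60Cr1* libraries were all above the wild type (4.63% of all loci), the 2 of 9 in *slmyb60Cr2* (11.4% of all) and the 2 of 9 with all 8 edited libraries above it (2.73% of all). The median log2 fold change of the 9 tested loci was 0.17 in *slmyb60Cr1* and 0.15 in *slmyb60Cr2*, against −0.02 and 0.04 over all loci tested. The 9 include Solyc10g075090 and Solyc10g075103, so the medians also follow in part from the choice and show no shift of the interval. Both comparisons share the wild type libraries.

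The lines were then compared with each other, a contrast that did not itself define the interval. Solyc10g075090 and Solyc10g075103 were chosen for being higher in both lines, which favours loci that are alike in the lines, so for them the contrast is a description without a test. Of the 9 loci, 0 were called by limma, against 0.151% of all loci tested, and 1 had an unadjusted p below 0.05, which was Solyc10g075080 at under 1 TPM, against 14.5% of all loci tested. Solyc10g075090 was lower in *slmyb60Cr2* by a log2 difference of −0.42 (95% interval −0.98 to 0.15), and the values of the lines overlapped. For Solyc10g075103 the difference was 0.07 (95% interval −0.58 to 0.73). For Solyc10g075150 it was −0.48 (95% interval −1.08 to 0.11, limma adjusted p = 0.445), again with overlapping values. Intervals of this width would also hold differences of up to about 1 log2 unit for Solyc10g075090 and Solyc10g075150, so the lines are not shown to be alike.

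**Figure D2:**
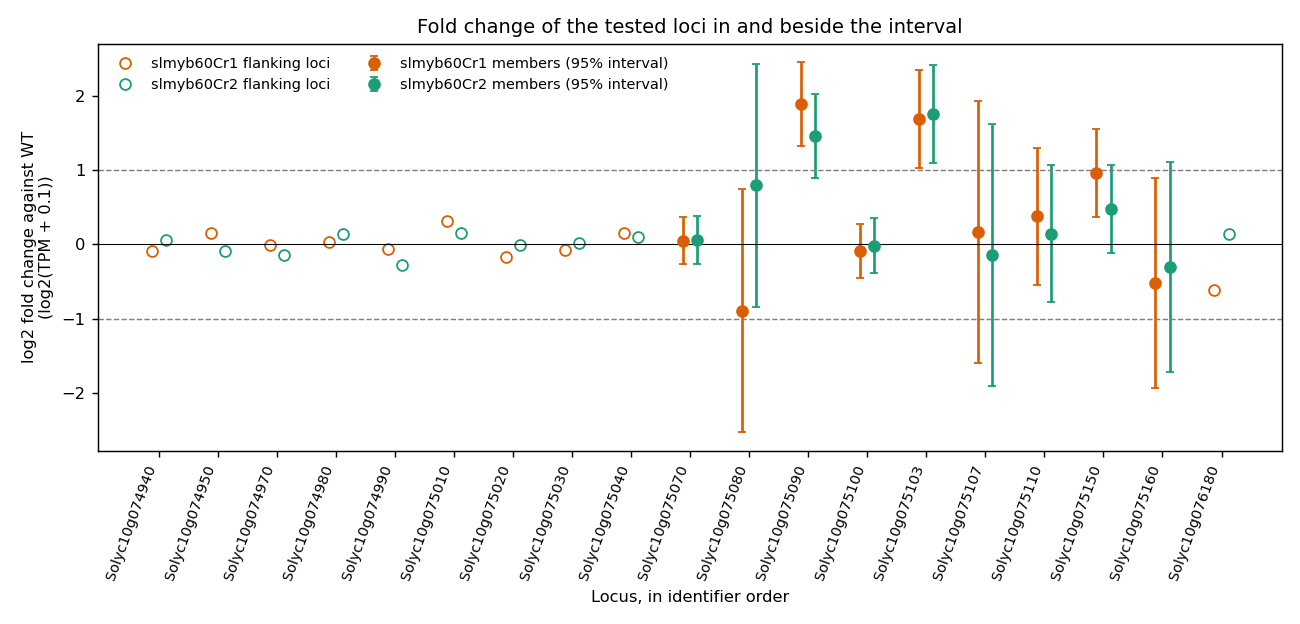
Log2 fold change against the wild type, on the log2(TPM + 0.1) scale, for the 9 tested loci of the interval (filled, with 95% intervals) and the 10 tested flanking loci (open), in identifier order and without regard to distance, for *slmyb60Cr1* and *slmyb60Cr2*; dashed lines mark −1 and 1. Solyc10g075090 and Solyc10g075103 lie above 1 in both lines with Solyc10g075100, near 0, between them.

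Loci on either side of the interval were far below its most abundant loci. Of the 10 loci before and the 10 after it, 10 were tested and none was called by limma in either line (0 of 10). Of all loci tested, 0.669% were called in either direction in *slmyb60Cr1* and 1.4% in *slmyb60Cr2*. At an unadjusted limma p below 0.05 there were 0 in *slmyb60Cr1* and 1 in *slmyb60Cr2*, against 17.1% and 23.1% of all loci tested. A count of 0 called is thus no result about the flanks. The most abundant of the 20, Solyc10g074980 before the interval, was at 129 TPM in the wild type. That is above the wild type means of Solyc10g075160 and Solyc10g075103 inside it. After the interval, the highest wild type mean was 3.14 TPM, for Solyc10g076180. The wild type means of all 20 added up to 299 TPM, less than Solyc10g075090 alone. At the lower edge, Solyc10g075050 just inside was at 0 in all libraries and Solyc10g075040 just outside lay between 26.3 and 38.2 TPM. At the upper edge, Solyc10g075160 inside had the values given above and Solyc10g075170 outside did not exceed 0.151 TPM.

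The interval as a whole supplied about 1% of the leaf's transcripts. The summed TPM was 11526, 8211, 7924 and 8723 in the wild type, 13027, 10934, 11811 and 11324 in *slmyb60Cr1* and 11909, 10183, 10672 and 9881 in *slmyb60Cr2*. These sums are 0.910%, 1.18% and 1.07% of all TPM on average. All but wild type replicate 1 of the wild type libraries were below every edited library, and wild type replicate 1 was within the range of both lines. The mean of the sum was 1.29 times that of the wild type in *slmyb60Cr1* (log2 ratio 0.37) and 1.17 times in *slmyb60Cr2* (log2 ratio 0.23). Without wild type replicate 1 the log2 ratios were 0.51 and 0.36. No test was made on the sum, because its members were chosen with their differences known.

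The difference in the sum came mostly from Solyc10g075150 and Solyc10g075090. The first was not called in either line, and the interval was drawn around the second. In *slmyb60Cr1* the mean sum was 2678 TPM above the wild type. Of this, Solyc10g075150 made up 66.2%, Solyc10g075090 31.0%, Solyc10g075103 5.55% and Solyc10g075070 4.77%. Solyc10g075100, lower on average, had a share of −8.98%. In *slmyb60Cr2* the mean sum was 1565 TPM above the wild type. The shares were 46.9% for Solyc10g075150, 37.7% for Solyc10g075090, 10.6% for Solyc10g075103, 8.36% for Solyc10g075070 and −3.23% for Solyc10g075100. The annotated pair together held 4.19% ± 0.216 of the summed TPM of the wild type (mean ± SD, n = 4), 11.5% ± 1.04 of that of *slmyb60Cr1* and 10.5% ± 3.21 of that of *slmyb60Cr2*. Summed over the pair, the level was 383 ± 87.3 TPM in the wild type, 1360 ± 198 TPM in *slmyb60Cr1* and 1139 ± 442 TPM in *slmyb60Cr2*. How Salmon divided reads between loci of similar sequence was not tested, and neither the similarity nor the lengths of the transcripts were analysed here.

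**Figure D3:**
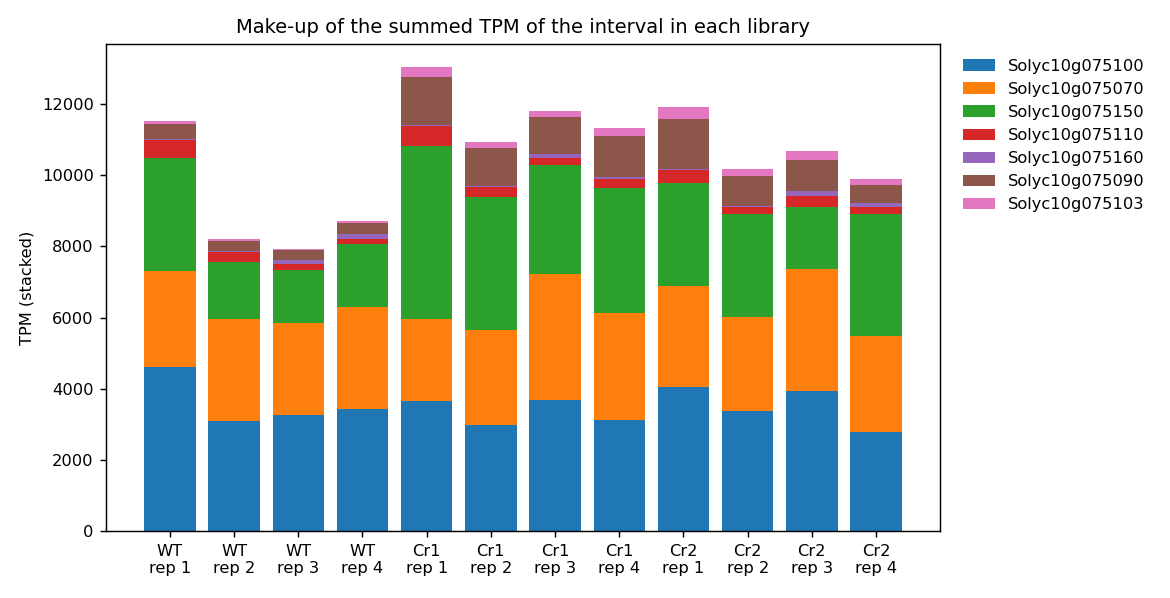
Summed TPM of the interval in each of the 12 libraries, stacked by locus (the 10 loci near 0 are too low to draw); Cr1 is *slmyb60Cr1*, Cr2 is *slmyb60Cr2* and rep is the replicate number. The layers of Solyc10g075090 and Solyc10g075103 are thicker in every edited library, and the Solyc10g075150 layer of wild type replicate 1 is thicker than in the other wild type libraries.

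Levels were also set against Solyc10g075100 within each library, which removes any factor that a library applies to both loci. These ratios had not been planned. Solyc10g075090 and Solyc10g075103 were chosen for their difference in these same libraries. Their separation from the wild type on this scale therefore follows largely from the choice and is a description. Solyc10g075090 stood at 8.64% ± 0.237 of Solyc10g075100 in wild type leaves (mean ± SD, n = 4), with all 4 libraries between 8.41% and 8.87%, although the level of either locus alone varied far more between these libraries. The coefficient of variation was 2.74% for the ratio, 21.6% for Solyc10g075090 itself and 19.3% for Solyc10g075100. The ratio was 34.1% ± 4.40 in *slmyb60Cr1* and 24.8% ± 6.81 in *slmyb60Cr2*, with the lowest edited library at 18.0%. The coefficients of variation for this ratio were 12.9% and 27.4% in the edited lines. The spread was not smallest in the wild type for every ratio. Solyc10g075103 over Solyc10g075100 had 28.1% (wild type), 18.9% (*slmyb60Cr1*) and 19.3% (*slmyb60Cr2*). In the same order, Solyc10g075110 over Solyc10g075100 had 44.4%, 43.0% and 18.3%, and Solyc10g075150 over it had 17.9%, 19.5% and 40.2%. Solyc10g075090 over Solyc10g075103 had 36.6%, 11.3% and 9.91%. Loci outside the interval were not compared in this way, so the value of 2.74% describes its own pair only. Solyc10g075103 stood at 1.96% ± 0.551 of Solyc10g075100 in wild type leaves, 6.54% ± 1.24 in *slmyb60Cr1* and 6.55% ± 1.26 in *slmyb60Cr2*, without overlap between the wild type and either line. Solyc10g075150 stood at 46.1% to 68.6% in wild type leaves, 82.7% to 133% in *slmyb60Cr1* and 44.5% to 123% in *slmyb60Cr2*. On this scale every *slmyb60Cr1* library was above every wild type library, replicate 1 included, whereas *slmyb60Cr2* overlapped the wild type. Solyc10g075100 was itself highest in replicate 1 of the wild type, at 4619 TPM, which lowers the ratio there. No other locus served as the reference for Solyc10g075150, so the separation is shown for this reference only. How many of all loci would separate in this way was not counted. Solyc10g075110 overlapped in all genotypes, from 3.75% to 15.5%.

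**Figure D4:**
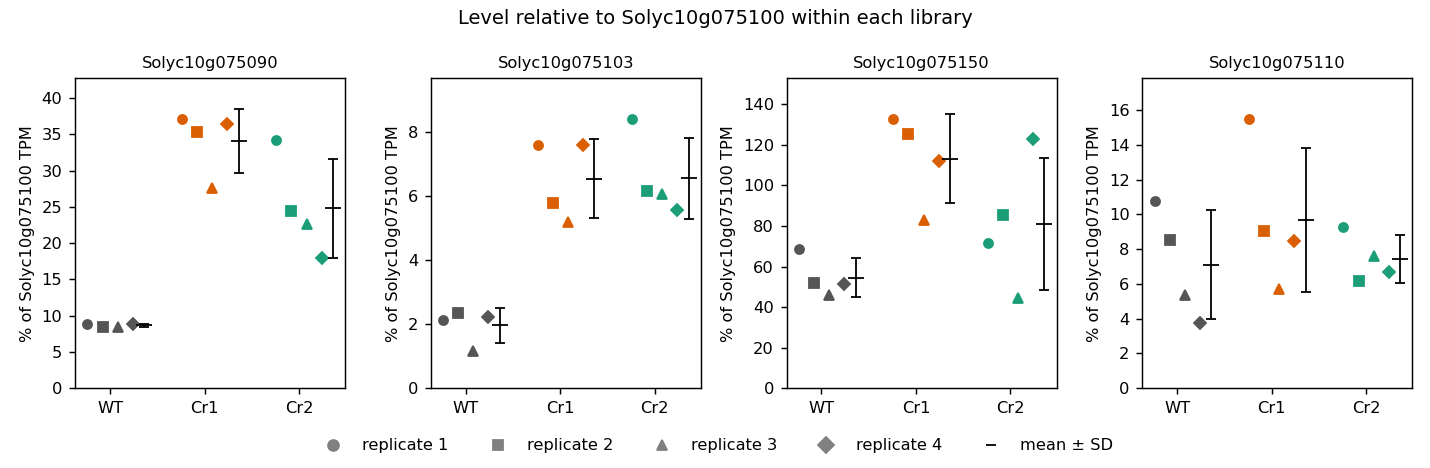
TPM of 4 loci as a percentage of the TPM of Solyc10g075100 in the same library, by genotype and replicate number, with the mean ± SD (n = 4); WT is the wild type, Cr1 *slmyb60Cr1* and Cr2 *slmyb60Cr2*. For Solyc10g075090 the wild type libraries fall between 8.41% and 8.87% and the edited libraries at or above 18.0%.

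Several loci of the interval varied together inside the genotypes. Solyc10g075090, Solyc10g075103 and Solyc10g075110 were highest in replicate 1 of all 3 genotypes, as was the summed TPM. Such a pattern was seen in 11.1% of all loci tested. Solyc10g075160 went the other way, with replicates 3 and 4 above replicates 1 and 2 in each genotype, a pattern of 4.22% of all loci tested. As a description over the 12 libraries, Pearson's r between deviations from the genotype means (log2 scale) was 0.820 for Solyc10g075090 with Solyc10g075100, 0.777 for Solyc10g075090 with Solyc10g075103 and 0.669 for Solyc10g075090 with Solyc10g075110. It was −0.693 for Solyc10g075110 with Solyc10g075160 and −0.635 for Solyc10g075070 with Solyc10g075150, so the interval did not vary as one unit. Over the 21 pairs of the 7 loci, 13 were positive and the median r was 0.225. The same values were not taken over other loci, so none is shown to be particular to the interval. These values share libraries and the same total, and the part that Salmon's division of reads plays in them was not tested.

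**Figure D5:**
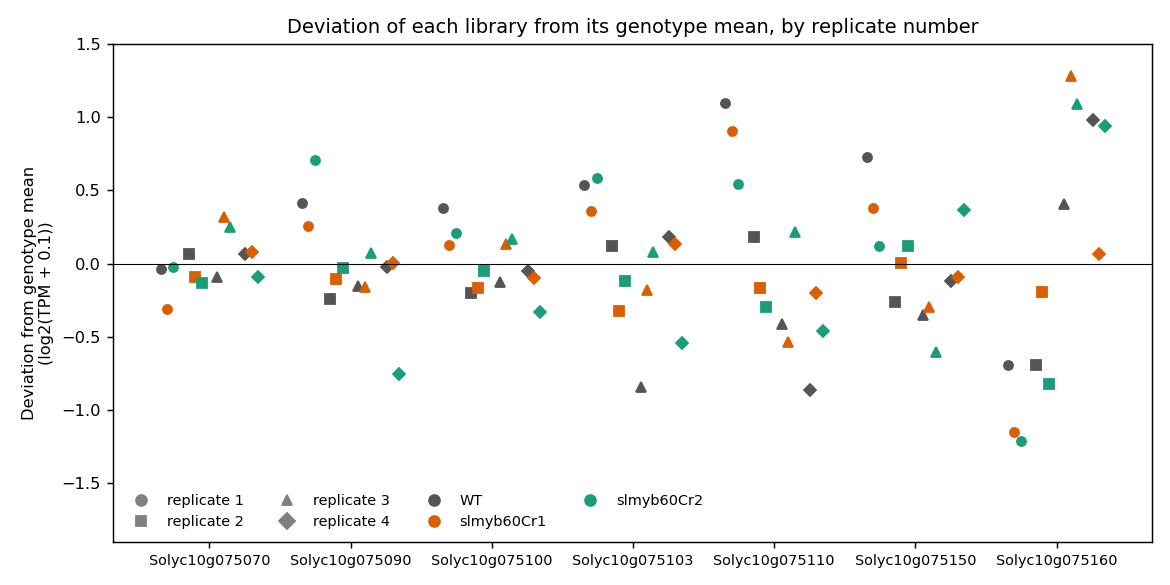
Deviation of each library from its genotype mean on the log2(TPM + 0.1) scale for the 7 loci above 10 TPM, with 1 symbol per replicate number and 1 colour per genotype. The replicate 1 libraries lie above their genotype mean in Solyc10g075090, Solyc10g075103 and Solyc10g075110 and below it in Solyc10g075160.

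Outside the interval, the locus whose log2(TPM + 0.1) values followed the summed TPM most closely over the 12 libraries, among 21209 compared, was Solyc01g109140 (Pearson's r = 0.930), followed by Solyc06g068900 (r = 0.919). The next 3 had r between 0.895 and 0.903. The first was at 5.19 TPM in the wild type, 8.17 TPM in *slmyb60Cr1* and 6.79 TPM in *slmyb60Cr2* on average, and the other was below 1 TPM in each genotype. Neither was called in either line, and no names were at hand for them. Of the 5, the only one called was Solyc12g011030 (r = 0.895), in *slmyb60Cr2* with a log2 fold change of 1.27, where 1.4% of all loci tested were called. Its log2 fold change in *slmyb60Cr1* was 1.39 and not called here. The study lists the gene as higher in both lines. The study annotates it as an endotransglucosylase-hydrolase, a class of enzymes that remodel the cell wall. With so many loci compared over 12 libraries, values of this size are a description only.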

How the data were processed

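Leaf poly(A) RNA of 12 libraries was sequenced as paired-end reads. The authors trimmed reads with fastp and quantified the ITAG 4.0 transcripts with Salmon, correcting for GC content and sequence bias; tool versions are not given in the sources used here. The deposited values are TPM, 1 column per library, each summing to 1000000, although the table is named for counts. TPM holds no depth, so counting intervals were not computed and the DESeq2 test of the authors could not be repeated. Each replicate was a pool of leaf discs, per the study's methods.

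Here, log2(TPM + 0.1) was taken for the 21218 genes that reached 0.5 TPM in 4 or more libraries and fitted across all genes with limma 3.58.1 (R 4.3.3, intensity trend, genotype only), with Benjamini-Hochberg adjustment. Figures used matplotlib 3.10.9. The fit was tested on simulated data. Named loci were all 17 of the interval, *SlMYB60*, and the genes most like the summed TPM. Of the 5 such genes, 2 unnamed identifiers and the 1 that was called are printed. Members and lists were chosen with earlier results of these data known. Lipid transfer protein genes elsewhere and promoter motifs had been planned but could not be taken up: 0 of 41476 rows of the gene table at hand carried a Solyc identifier, and no sequences were used here. Alternatives were the pseudocount, the TPM minimum, the groups fitted, the replicate block, rescaling, limma's variance model and leaving out libraries.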

Additional observations from a re-analysis of the deposited data

Results flagged for a closer look

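Among 33 sets of 4 libraries (9 tested loci of the interval, *SlMYB60* and the summed TPM, in each genotype), 2 had a library far from the other 3. Chance alone would give about 1 in 20. The count of 2 in 33 is close to that rate and is no result by itself. In the wild type, replicate 1 of Solyc10g075150 was at 3169 TPM and the other libraries between 1502 and 1765 TPM. In *slmyb60Cr1*, replicate 1 of Solyc10g075110 was at 566 TPM and the other libraries between 209 and 269 TPM. Both are libraries numbered 1. What set these libraries apart was not tested.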

How the results depend on the processing

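In *slmyb60Cr2*, 2 loci were called under all 23 alternatives, and between the lines 0 were. The 2 were Solyc10g075090 and Solyc10g075103, chosen for their difference in these same libraries. Their calls under the alternatives therefore follow largely from the choice. In *slmyb60Cr1*, the number called was 1 to 3 with 1 library left out in turn, and in both lines 1 to 2, in each case with 1 without wild type replicate 2, wild type replicate 4 or *slmyb60Cr1* replicate 4. Same-numbered libraries deviated together in part, with a mean correlation of deviations of 0.193 over 12 pairs against −0.0641 over 36 pairs of different number. Since 8 of the 12 and not all were above 0.1 (lowest −0.0467), and the labels give no shared source, the main fit did not take the numbers as pairs. The block was run as an alternative. Of the 36 pairs of different number, 9 were above 0.1. Replicates 1 and 2 were above replicates 3 and 4 in every genotype for 10.8% of all loci tested, against 4.22% the other way. Libraries correlated best with their own number in 11 of 24 cases, each with 4 libraries to choose from. What same-numbered libraries share was not tested. With the replicate number as a block, 2 loci were called in each line. The block put Solyc10g075150 past the adjusted p in *slmyb60Cr1* (limma adjusted p = 0.0361), but not past the log2 threshold. Rescaling moved the median of all genes by less than 0.1 on the log2 scale. The log2 ratio of the summed TPM was 0.26 to 0.61 in *slmyb60Cr1* and 0.13 to 0.37 in *slmyb60Cr2* over 14 alternatives each.

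Only uncalled log2 values changed sign, and the cause was not tested. With 1 library left out, they ran in *slmyb60Cr1* from −0.058 to 0.15 for Solyc10g075070, from −0.15 to 0.039 for Solyc10g075100 and from −0.33 to 0.76 for Solyc10g075107. In *slmyb60Cr2* they ran from −0.023 to 0.10 for Solyc10g075070, from −0.087 to 0.11 for Solyc10g075100, from −0.64 to 0.32 for Solyc10g075107, from −0.14 to 0.51 for Solyc10g075110 and from −0.67 to 0.099 for Solyc10g075160. Between the lines they ran from −0.092 to 0.12 for Solyc10g075070, from −0.12 to 0.26 for Solyc10g075103, from −0.90 to 0.19 for Solyc10g075107, from −0.41 to 0.070 for Solyc10g075110 and from −0.17 to 0.64 for Solyc10g075160. Rescaling gave −0.045 between the lines for Solyc10g075070. Leaving out the 3 libraries numbered 1, an alternative added after seeing the data, gave −0.084 there, −0.00053 for Solyc10g075103 between the lines and 0.039 for Solyc10g075100 in *slmyb60Cr2*.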
